A study of Mus musculus with 12 samples.

Results

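The 87 genes described here start from 50 Mb to below 80 Mb on mouse chromosome X (mm10 coordinates). They were chosen by position, with earlier results of these data known, out of 242 genes with an allelic ratio, Xist left aside. Plxna3 and Aff2 also start in the segment and were left out by the rule. The segment divides into a sparse stretch from 50 to 70 Mb with 31 genes and a gene-dense stretch from 70 to 80 Mb with 56 genes, or 1.55 and 5.60 genes per Mb. All 87 genes lie between 23.8 and 52.8 Mb from the start of Xist. Annotation gives 80 as protein coding, 3 as processed transcripts, 1 as a lincRNA and 1 as a transcribed pseudogene, and 2 symbols had no match.

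ChrRNA-seq, which reads RNA still attached to chromatin and hence mostly nascent transcripts, was performed on XX mouse ES cells from a cross of the Cast and 129S strains. In every clone a TetOn promoter replaced that of Xist on the 129 chromosome, so that doxycycline makes the 129 X the inactive X (Xi) and leaves the Cast X active (Xa). There were 6 clones and 12 libraries, and each clone was profiled untreated (NoDox) and with doxycycline at 1.0 µg/mL for 24 h (Dox24h). The purpose was to ask what the m6A-modified regions of Xist RNA contribute to silencing. Clone 2B was labelled WT, and the study's account of the lines places an exon 7 deletion on its uninduced Cast allele. On the induced allele, 153 bp of the m6A region in exon 7 were missing in 3B and 4E, which by that account lacked them on the Cast allele too. In exon 1, 355 bp of the m6A region were missing on the induced allele in 6F, and 7E carried both deletions there. Clone 11C was labelled with the same exon 1 deletion, but the account does not list it and its label names no allele. WT and the double deletion are therefore 1 clone each, and clone and genotype cannot be told apart there. All cells were cultured on inactivated fibroblast feeders, whose share of the RNA was not tested. The table holds X-linked genes only, so the identity of the cells was not checked here against markers.

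The allelic ratio is the share of informative reads from the Xi, Xi/(Xi + Xa). A ratio of 0.5 means equal RNA from both alleles, and the change of a gene is its Dox24h ratio minus its NoDox ratio in the same clone. Reads of Xist came almost entirely from 129, at ratios of 0.911 to 1.0 in NoDox and 0.986 to 0.998 in Dox24h, which says nothing about the deletions. Clone 4E stood apart before induction. Its median NoDox ratio over the 87 genes was 0.781, while the other 5 clones lay between 0.501 and 0.526. Beyond the minimum that the study set for a gene to be listed, read depth is unknown, so values are given with the spread between clones only.

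During X inactivation, Xist RNA spreads in cis along its chromosome and recruits factors that shut down transcription, and genes differ in how fast they lose expression. N6-methyladenosine (m6A) is a methyl mark that the METTL3 complex writes on RNA, Xist included. The sparse stretch holds Firre, a noncoding RNA gene tied to nuclear organization, the glypican genes Gpc3 and Gpc4, which encode heparan sulfate proteoglycans of the cell surface, and Hprt, a purine salvage enzyme. The gene-dense stretch holds many short housekeeping genes beside genes such as Flna, which encodes an actin crosslinker.

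Induction of Xist lowered the ratio of most genes of the segment. Over the 87 genes, WT had a median change of -0.167. With exon 1 deleted, 6F had -0.228 and 11C had -0.182, and with exon 7 deleted, 3B had -0.112 and 4E had -0.125. The double deletion 7E had -0.0971. The mean of these medians was -0.152 ± 0.0494 (SD, n = 6). For the 153 genes that start outside the segment it was -0.125 ± 0.0576 (SD, n = 6), and the segment had the lower median in 6 of 6 clones. The gap in clone 6F was small, with -0.228 inside and -0.220 outside. The sparse stretch alone lay below the outside genes in every clone, but the gene-dense stretch did not. Its median lay above theirs in WT (-0.135 and -0.147), 6F (-0.208 and -0.220) and, barely, 11C (-0.145 and -0.146). It lay below theirs in 3B (-0.104 and -0.0698), 4E (-0.124 and -0.0904) and 7E (-0.0867 and -0.0767). In clone 11C, 86 of the 87 genes had a lower ratio after induction, compared to 73 in clone 6F, where the changes of single genes were also most spread (SD over genes 0.214, compared to 0.0825 to 0.135 in the other clones).

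Gene by gene, 61 of the 87 members fell at an adjusted p under 0.05 (limma, Benjamini-Hochberg over all 242 genes), and the background over all genes was 71.5%. No member rose (0 genes). A lower ratio in all 6 clones was seen for 54 members, where the background was 61.6%. A further 23 members were lower in 5 clones, 6 in 4 clones and 3 in 3 clones. The segment as a whole was thus called about as often as the table. Within it, 25 of the 31 genes of the sparse stretch fell, compared to 36 of the 56 genes of the gene-dense stretch. In the fit that ignores which NoDox library belongs to which clone (no replicate block), 7 members passed instead of 61.

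The sparse and the gene-dense stretch were compared clone by clone. In the sparse stretch, the median ratio went from 0.515 to 0.278 in WT, from 0.481 to 0.218 in 6F and from 0.494 to 0.267 in 11C. It went from 0.513 to 0.383 in 3B, from 0.767 to 0.642 in 4E and from 0.492 to 0.380 in 7E. The clones with exon 7 intact thus reached the lowest ratios. In the gene-dense stretch, the median ratio went from 0.526 to 0.393 in WT, from 0.506 to 0.284 in 6F and from 0.525 to 0.352 in 11C. It went from 0.534 to 0.426 in 3B, from 0.798 to 0.665 in 4E and from 0.515 to 0.431 in 7E. Every Dox24h median of the gene-dense stretch was above that of the sparse stretch in the same clone.

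**Figure D1:**
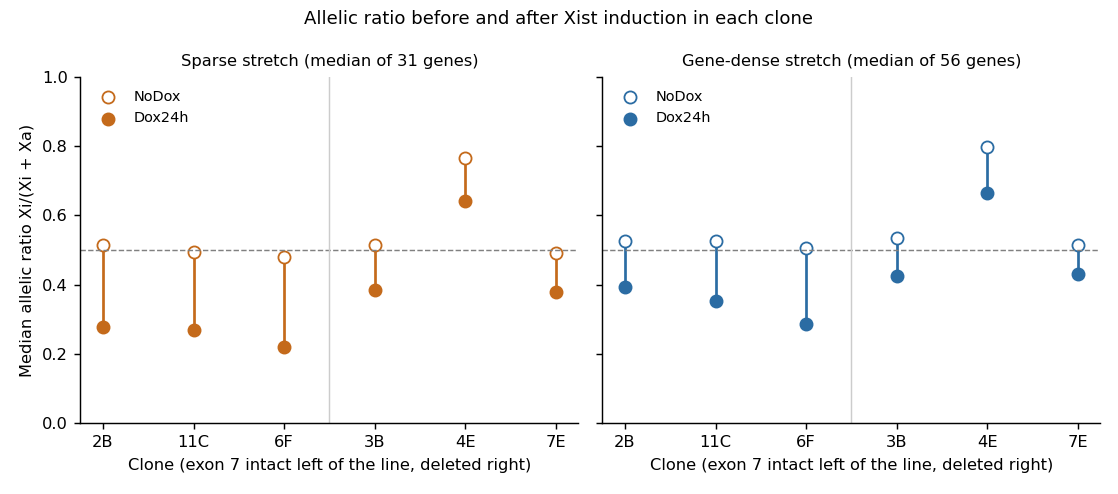
Median allelic ratio in NoDox (open circles) and Dox24h (filled circles) of each clone (horizontal axis) for the 31 genes of the sparse stretch (left) and the 56 genes of the gene-dense stretch (right). Clone 4E starts at 0.767 and 0.798 while the other clones start near 0.5 (dashed line). In the sparse stretch the vertical lines are shorter on the right of the panel, where exon 7 is deleted. In the gene-dense stretch the line of 4E is about as long as that of WT.

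The median change was -0.177 ± 0.0675 (SD, n = 6) in the sparse and -0.134 ± 0.0419 (SD, n = 6) in the gene-dense stretch. The gene-dense median minus the sparse median was 0.0639 in WT, 0.0692 in 6F, 0.0812 in 11C, 0.0206 in 3B, 0.00188 in 4E and 0.0230 in 7E. The difference was positive in 6 of 6 clones with a mean of 0.0433 ± 0.0322 (SD, n = 6), although in 4E it was close to 0. With means over genes in place of medians it was positive in 4 of 6 clones (mean 0.0280), and 4E and 6F were slightly negative.

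**Figure D2:**
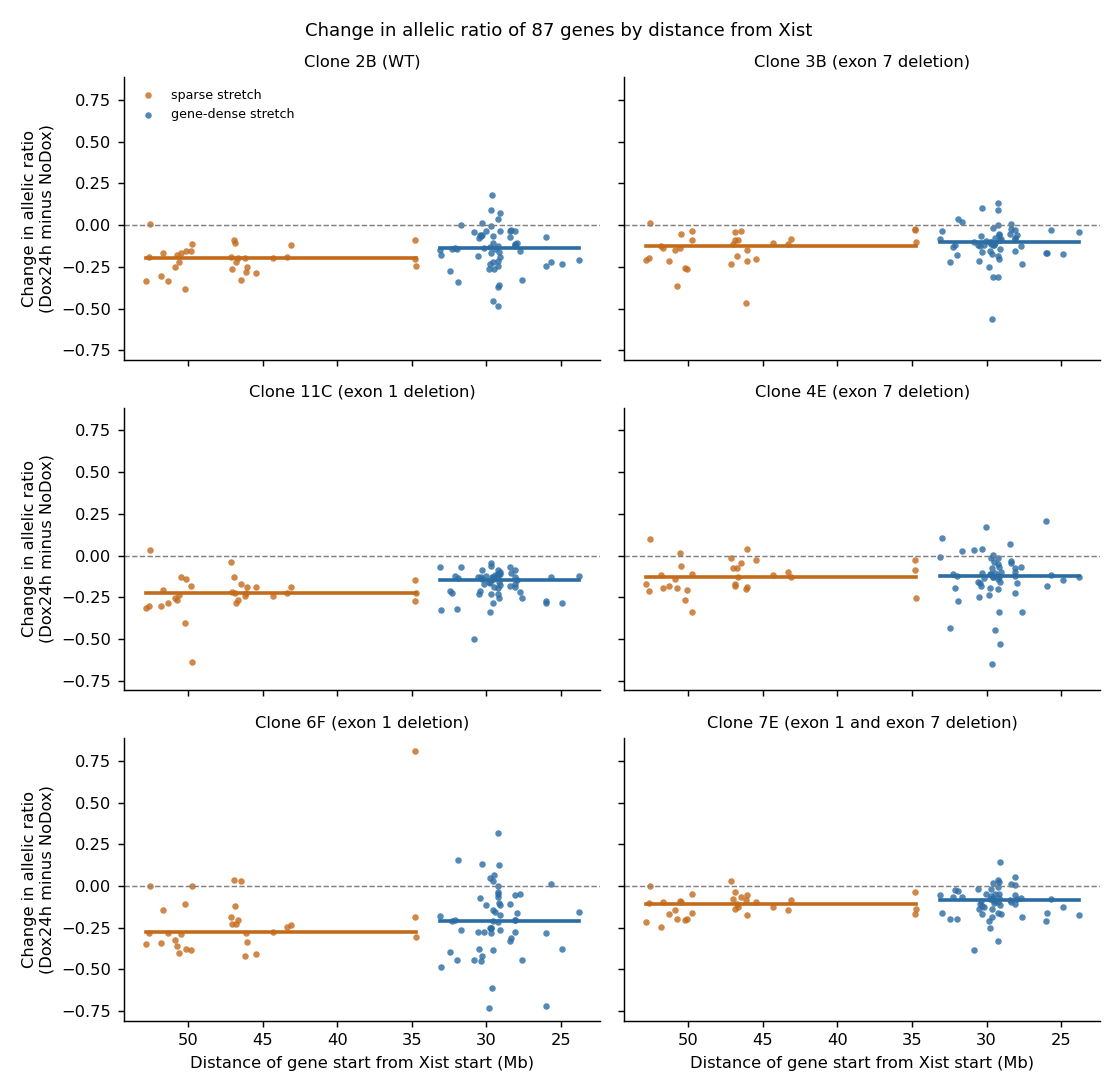
Change in allelic ratio (vertical axis) of each of the 87 genes by the distance of its start from the start of Xist in Mb (horizontal axis, nearest on the right), in 1 panel per clone. Points are genes, and horizontal bars are the medians of the sparse and the gene-dense stretch, which lie 0.0639 to 0.0812 apart in the clones with exon 7 intact (left column) and 0.00188 to 0.0230 apart in the others (right column).

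The distance between the stretches differed with the state of exon 7, a pattern picked after its values were seen. With exon 7 intact the gene-dense stretch was less lowered by 0.0714 ± 0.00885 (SD, n = 3), and with exon 7 deleted by 0.0152 ± 0.0116 (SD, n = 3). The arms did not overlap. They did not overlap either when ratios were put on the log2 odds scale, where the distances were 0.49 ± 0.06 and 0.11 ± 0.06 (SD, n = 3 each). The arms overlapped with means over genes, and also among the 51 genes that span at least 20 kb, where the distances were 0.0435 ± 0.0237 and 0.0132 ± 0.00627 (SD, n = 3 each).

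Genes of the sparse stretch came in 3 blocks. The 14 genes from Firre to 1700013H16Rik had the lowest median change, -0.204 ± 0.0648 (SD, n = 6), followed by the next 14 genes, from Zfp449 on, with -0.160 ± 0.0642. After a gap of 8.44 Mb without a gene of the table, Gm10474, Fmr1 and Fmr1nb had -0.144 ± 0.0749, which was within 1 SD of the gene-dense stretch that follows. Within clones, the first block was lower than the second in 5 of 6 clones, by 0.0437 ± 0.0339 on average (SD, n = 6), and lower than the third in 5 of 6 clones, by 0.0604 ± 0.0579. WT was the exception in both cases. The second and the third block had no common order, the second being lower in 3 of 6 clones. Inside the gene-dense stretch, the most crowded Mb, from 73 to 74 Mb, held 17 genes with a median change of -0.132 ± 0.0635, and the Mb after it held 14 genes with -0.115 ± 0.0412. Farther on, from 77 to 78 Mb, the 3 rows Mir669m-2, Tbl1x and Prkx had -0.203 ± 0.0666. The row Mir669m-2 spans 312 kb, far more than a microRNA, and its own change did not pass the test (mean -0.205, adjusted p = 0.0691, limma).

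Firre (50555744 to 50635258, minus strand) is the first gene of the segment and was among the most lowered. Its ratio went from 0.614 to 0.278 in WT, from 0.574 to 0.225 in 6F and from 0.589 to 0.273 in 11C. It went from 0.619 to 0.409 in 3B, from 0.848 to 0.680 in 4E and from 0.598 to 0.380 in 7E. The mean change was -0.266 (SE 0.0172, adjusted p = 0.00173, limma), and each clone with exon 7 intact changed more than each clone without it. Gpc4 (52053018 to 52164923, minus strand) had a like profile. It went from 0.506 to 0.170 in WT, from 0.481 to 0.202 in 6F and from 0.445 to 0.158 in 11C, compared to 0.502 to 0.284 in 3B, 0.823 to 0.642 in 4E and 0.461 to 0.290 in 7E. The mean change of Gpc4 was -0.245 (SE 0.0163, adjusted p = 0.00173), and that of its neighbour Gpc3 was -0.211 (SE 0.0182, adjusted p = 0.00173).

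The other genes with the largest mean decreases of the sparse stretch were Fam122b (-0.271), Arhgef6 (-0.269), a guanine nucleotide exchange factor of small GTPases, and Kis2 (-0.260). All 3 were lower in 6 of 6 clones and passed the test. Fam122b fell from 0.618 to 0.233 in WT and from 0.617 to 0.213 in 11C, but in 6F only from 0.481 to 0.374. Arhgef6 and Kis2 were both listed at exactly 0 in 6F after induction, where few reads cannot be told from full silencing. At the other end, Mmgt1 (-0.0742), Htatsf1 (-0.101) and Zfp449 (-0.105) were lower in 5 of 6 clones and did not pass the test (adjusted p = 0.0907, 0.0840 and 0.0572). Htatsf1, an elongation and splicing cofactor, was at 0.668 and 0.340 in WT yet at 0.557 and 0.587 in 6F.

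A pair of genes in the sparse stretch had mean changes above 0, and neither passed the test. Frmd7 was listed at 0 in all 6 NoDox libraries and at 0 to 0.101 in Dox24h, so a decrease could not be measured. It was higher in 4 of 6 clones after induction and lower in 0. Gm10474, which starts next to Fmr1 on the opposite strand, changed by -0.271 to -0.0255 in 5 clones, but in 6F its ratio was 0.190 in NoDox and exactly 1 in Dox24h. Its mean change was 0.0386 ± 0.389 (SD, n = 6), and -0.139 in the fit without 6F. Fmr1 itself, which encodes an RNA-binding protein of synapses, fell by 0.113 (SE 0.0182, adjusted p = 0.00541).

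In the gene-dense stretch, Pls3 (75785654 to 75874574, minus strand), which bundles actin, was among the most lowered genes, with changes of -0.443 to -0.183. It went from 0.422 to 0.0938 in WT, from 0.505 to 0.0628 in 6F and from 0.418 to 0.161 in 11C. It went from 0.471 to 0.241 in 3B, from 0.767 to 0.426 in 4E and from 0.433 to 0.249 in 7E. The mean change was -0.297 (SE 0.0348, adjusted p = 0.00283). Mamld1, a coactivator gene that matters in gonad development, changed by -0.435 to -0.198 across clones (mean -0.288, SE 0.0436, adjusted p = 0.00474), and Arhgap4, an activator of small GTPases, by -0.456 to -0.0860 (mean -0.274, SE 0.0314, adjusted p = 0.00268). Slc6a8, the creatine transporter, had a larger mean of -0.308 (SE 0.0800, adjusted p = 0.0213). In 6F it went from 0.770 to 0.0400, while the other 5 clones changed by -0.262 to -0.159, and its call was lost without 2B, 3B, 4E or 7E and on the log2 odds scale. L1cam, an adhesion molecule of neurons, had the lowest mean of all members, -0.327 ± 0.334 (SD, n = 6), yet did not pass the test (adjusted p = 0.0619). Its NoDox ratios ran from 0.125 to 1, in WT it was higher after induction, at 0.304, and it passed without 2B or without 7E (-0.488 in both fits). For any gene, the fits without 2B and without 7E give the same mean change by their layout. That value rests on 3B, 4E, 6F and 11C alone, so the fits are not separate results.

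The least changed genes of this stretch were Rpl10 (-0.0275), Xlr4b (-0.0393), Dkc1 (-0.0399), Haus7 (-0.0412) and Naa10 (-0.0459), and none of these 5 passed the test. Rpl10 (74270816 to 74273135, plus strand) encodes a protein of the large ribosomal subunit. Its ratio went from 0.545 to 0.419 in WT, from 0.545 to 0.500 in 6F, from 0.644 to 0.532 in 11C, from 0.448 to 0.542 in 3B, from 0.838 to 0.825 in 4E and from 0.612 to 0.650 in 7E. It was lower after induction in the 3 clones with exon 7 intact and in 4E, and higher in 3B and 7E. Dkc1 (75095854 to 75109776, plus strand), the pseudouridine synthase of ribosomal and telomerase RNA, was at 0.510 and 0.472 in WT, 0.450 and 0.345 in 6F, 0.444 and 0.374 in 11C, 0.440 and 0.449 in 3B, 0.706 and 0.659 in 4E, and 0.398 and 0.410 in 7E before and after induction. Xlr4b has near-identical relatives, and Rpl10 has processed copies elsewhere, so that reads of both could have been split or lost. Haus7, a subunit of the augmin complex of the spindle, was lower in 5 clones and higher in 4E, from 0.571 to 0.742.

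**Figure D3:**
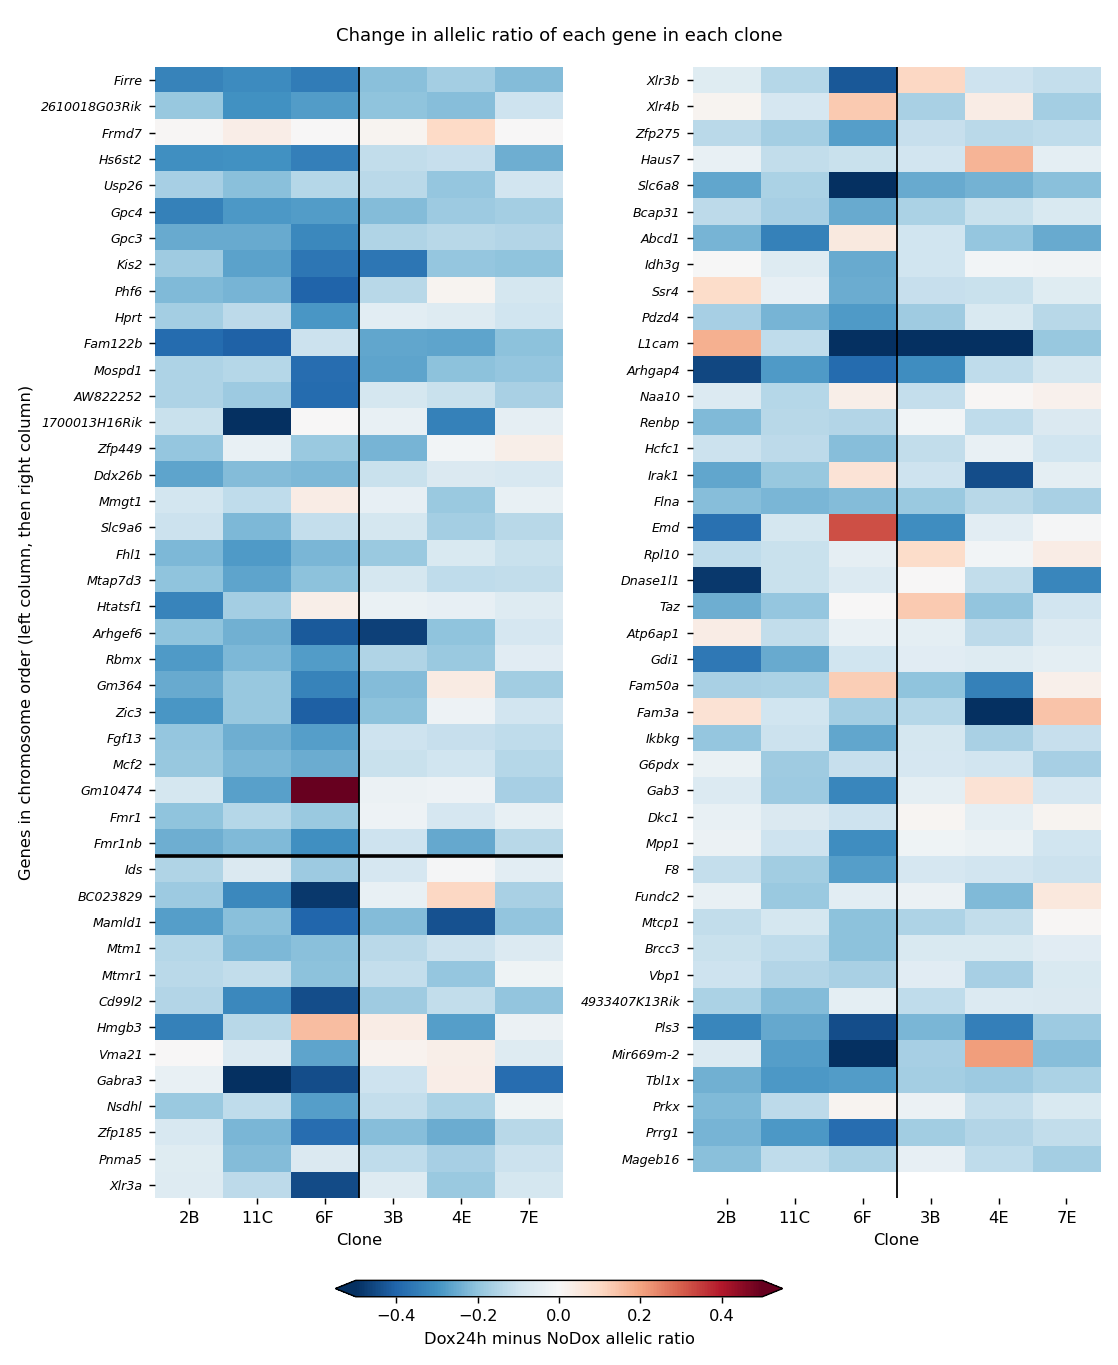
Change in allelic ratio (colour, blue for lower and red for higher after induction, colours end at 0.5 in either direction) of 85 of the 87 genes in chromosome order (rows) in the 6 clones (columns, exon 7 intact left of the vertical line). The horizontal line marks the start of the gene-dense stretch. Most cells are blue, Gm10474 in 6F (0.810) is the darkest red, and white or red cells are more frequent below the horizontal line.

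The size of a gene went along with its change. Members spanned 2.03 to 342 kb, with a median of 44.7 kb in the sparse and 20.9 kb in the gene-dense stretch. Of the 51 members that span at least 20 kb, 47 fell (92.2%), compared to 14 of the 36 shorter members (38.9%), where the background over all 242 genes was 71.5%. Outside the segment the split had the same direction, with 75 of 92 longer genes (81.5%) and 35 of 61 shorter genes (57.4%), and the difference between inside and outside was not tested. The median change of the longer genes was lower than that of the shorter genes in 6 of 6 clones, with -0.185 and -0.131 in WT, -0.275 and -0.109 in 6F, -0.217 and -0.150 in 11C, -0.122 and -0.0859 in 3B, -0.125 and -0.124 in 4E, and -0.115 and -0.0637 in 7E. In 4E the 2 values were nearly the same. Shorter genes also varied more between clones (median SD of the change 0.116, compared to 0.0761 for longer genes). Across the 87 genes, which share all libraries, the mean change correlated with span at -0.459 (Spearman) and, on log10 span, -0.410 (Pearson), and across the 153 other genes at -0.278 and -0.328. Among longer genes alone the gene-dense stretch was less lowered by 0.0283 ± 0.0227 (SD, n = 6, 6 of 6 clones positive), and among shorter genes by 0.0283 ± 0.0373 (4 of 6 clones positive). The number of informative reads behind a short or a long gene is unknown, and its part in these differences was not tested.

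Whether the exon 7 deletion changed the response was asked for each gene. For the whole segment, the median change was -0.111 ± 0.0138 (SD, n = 3) with exon 7 deleted and -0.192 ± 0.0317 (SD, n = 3) with exon 7 intact, a difference of 0.0809. The 3 deleted clones lay above all 3 intact clones. The difference was 0.0486 among clones with exon 1 intact and 0.108 among clones with exon 1 deleted. It was 0.114 in the sparse and 0.0578 in the gene-dense stretch, and in the latter 3B and 4E lay on average 0.0216 above WT. On the log2 odds scale, 4E (-0.86) lay below WT (-0.77) in the gene-dense stretch, so that the arms overlapped there. In the genes outside the segment it was 0.0921.

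No member passed the adjusted test for exon 7 (0 of 87, limma, background 0%), and 17 members had an unadjusted p under 0.05, where the background was 15.7%. Of these, 11 were among the 31 genes of the sparse stretch and 6 among the 56 genes of the gene-dense stretch. The 17 became 4 without 2B, 6 without 7E, 7 without 4E, 9 without 3B and 11 without 11C. The exon 7 term was above 0, meaning a smaller decrease with the deletion, for 74 members, and the background was 86.4%. In 25 members all clones with the deletion lay above all clones without it (background 32.2%), 13 of them in the sparse stretch. These shares over the segment were near those of the table. Plxna3 and Aff2, left out by the rule, each had a smaller exon 7 p than any member, and neither passed the adjusted test. With both included, the exon 7 difference in the segment median change was 0.0859 in place of 0.0809. With 3 clones against 3, an exact permutation test of a single gene cannot go below 0.1.

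Ddx26b, the gene of an Integrator-related protein, had the smallest exon 7 p among the members. It changed by -0.266 in WT, -0.225 in 6F and -0.217 in 11C, but by -0.112 in 3B, -0.0739 in 4E and -0.0784 in 7E. The groups did not overlap, and the exon 7 term was 0.158 (SE 0.0348, adjusted p = 0.232, limma). Rbmx, an RNA-binding splicing regulator, changed by -0.282, -0.279 and -0.225 with exon 7 intact and by -0.148, -0.186 and -0.0554 in 3B, 4E and 7E. For Arhgap4, Gpc4 and Firre the exon 7 terms were 0.243, 0.125 and 0.130, and the adjusted p was 0.280 for each of these and for Rbmx. The clones overlapped for Arhgap4, since 3B (-0.310) changed more than 11C (-0.285).

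**Figure D4:**
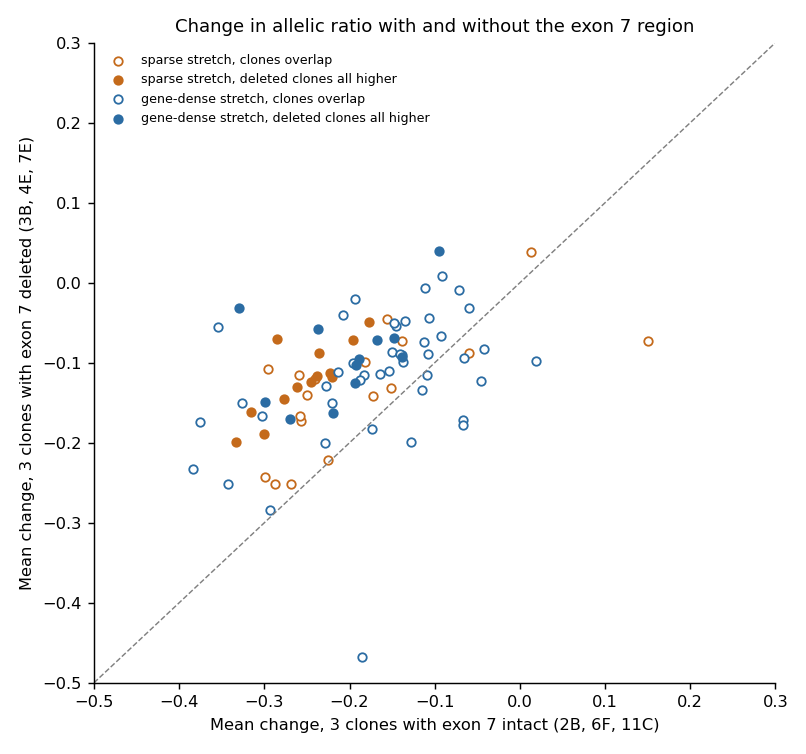
Mean change in allelic ratio of each of the 87 genes in the 3 clones with exon 7 intact (horizontal axis) and the 3 clones with exon 7 deleted (vertical axis), for the sparse (orange) and the gene-dense stretch (blue). Filled points are the 25 genes whose deleted clones all lie above the intact clones, and most points lie above the dashed line of equal change.

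For the exon 1 deletion the arms overlapped. The median change of the segment was -0.169 ± 0.0664 (SD, n = 3) with exon 1 deleted and -0.135 ± 0.0287 (SD, n = 3) with it intact, and the difference of -0.0342 was within the spread between clones. It was -0.0378 among clones with exon 7 intact and 0.0214 among clones with exon 7 deleted, and without 6F the difference over all clones was -0.00475. By limma, 0 members passed the adjusted test (background 0%) and 2 had an unadjusted p under 0.05 (background 2.07%). In 9 members all exon 1 deletion clones lay below all others (background 6.61%), and 8 of the 9 were in the gene-dense stretch. Gabra3, a GABA-A receptor subunit gene, had the smallest p. Its change was -0.444 in 6F, -0.498 in 11C and -0.381 in 7E. The clones with exon 1 intact had -0.0390 (2B), -0.104 (3B) and 0.0325 (4E) and did not overlap with these (exon 1 term -0.388, SE 0.0557, adjusted p = 0.254). BC023829 was next (term -0.209, SE 0.0681), followed by G6pdx (-0.0935), Fam50a (0.221) and Emd (0.333), each with an adjusted p of 0.985.

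Grouped by function, with lists written when earlier results of these data were known, decreases were found in each group and no member rose. The groups are small, and nothing particular to a group is read from their counts beside the background of all 242 genes. Among enzymes and transporters of metabolism, 10 of 12 genes fell (background 71.5%), with a median change of -0.133, compared to -0.148 over all members. Slc6a8 (-0.308) and the heparan sulfate sulfotransferase gene Hs6st2 (-0.239) were at the low end, while Ids (-0.0916), a lysosomal sulfatase, and Idh3g (-0.0754), a subunit of a citric acid cycle enzyme, were at the other. Idh3g and Taz were the pair that did not pass. Hprt fell by 0.134 and G6pdx, the entry enzyme of the pentose phosphate pathway, by 0.112.

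Of 9 genes for transcription and chromatin, 7 fell (background 71.5%, median change -0.160). Mamld1 and the corepressor gene Tbl1x (-0.220, SE 0.0166, adjusted p = 0.00173) had the lowest values. Zfp449 and Hmgb3 (-0.0981) did not pass. Signalling, adhesion and cytoskeleton genes had a median of -0.169, and 13 of 17 fell (background 71.5%), L1cam, Irak1, Emd (-0.0840) and Haus7 being the others. Flna changed by -0.227 to -0.140 across clones (mean -0.191, SE 0.0165, adjusted p = 0.00173).

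Membrane traffic and organelle genes fell in 5 of 9 cases (background 71.5%, median change -0.141). Cd99l2 (-0.235) and Bcap31 (-0.150), a chaperone gene of the endoplasmic reticulum, had the largest decreases, whereas Atp6ap1 (-0.0625) and Vma21 (-0.0584), both factors of the vacuolar proton pump, did not pass. For RNA and protein synthesis, 3 of 8 genes fell (background 71.5%), with a median change of -0.107. These were Rbmx (-0.196), Ddx26b (-0.162) and Fmr1, while Fam50a, Htatsf1, Naa10, Dkc1 and Rpl10 did not pass. Firre, the only long noncoding RNA listed, is described above, and of the 31 members in no list 22 fell (background 71.5%).

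**Figure D5:**
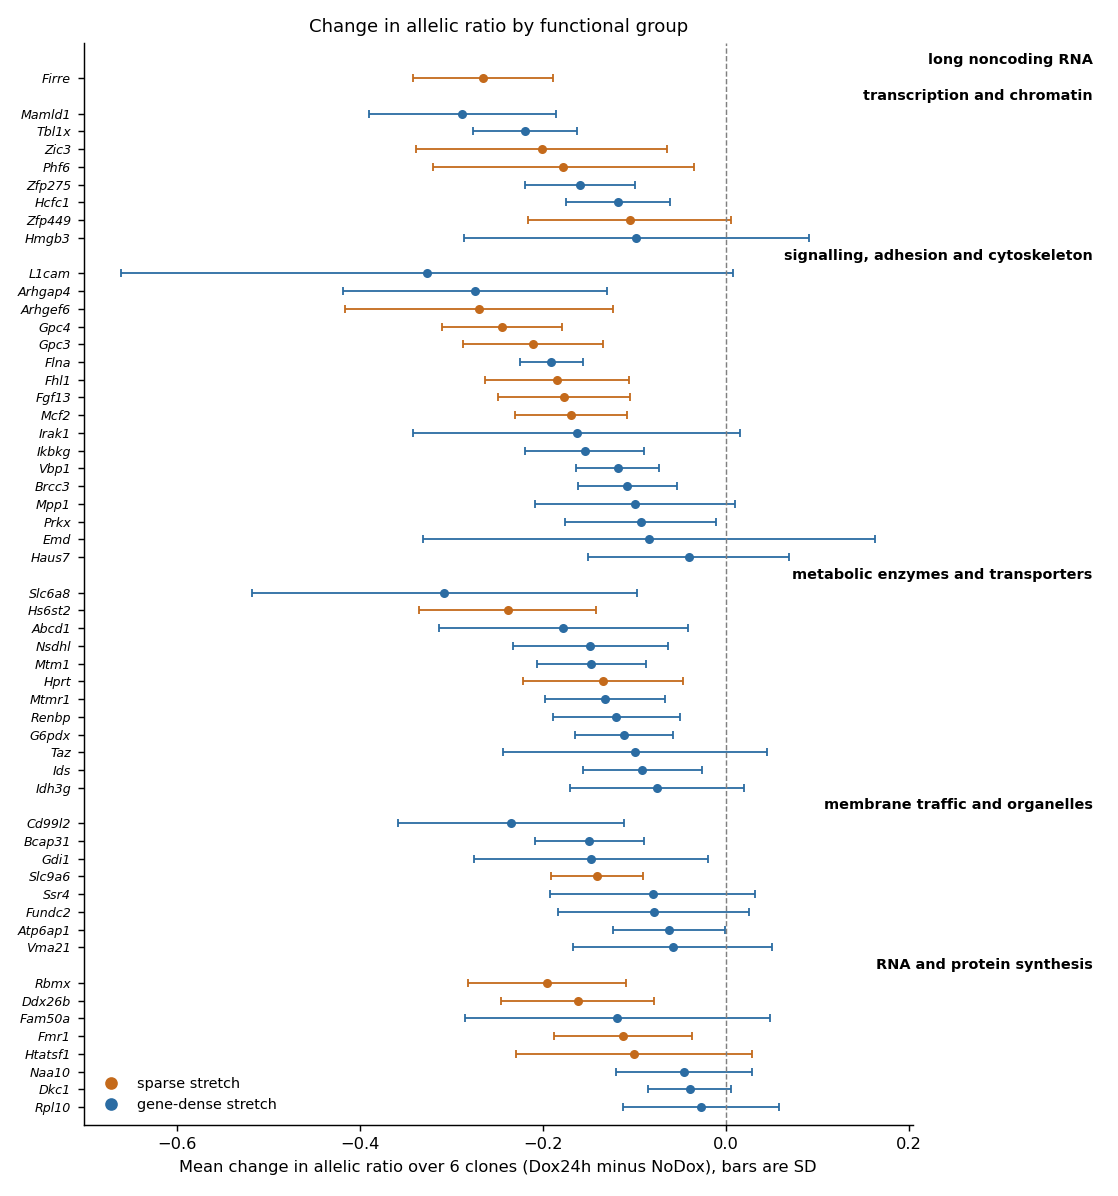
Mean change in allelic ratio over 6 clones (points, bars are SD) of 54 members placed in a functional group, ordered within each group from most to least lowered, with genes of the sparse stretch in orange and of the gene-dense stretch in blue. The RNA and protein synthesis group ends nearest to 0 with Naa10 (-0.0459), Dkc1 (-0.0399) and Rpl10 (-0.0275).

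Promoter sequences were compared because members differed in their change while sharing a neighbourhood. RefSeq promoters (GRCm38.p6, the same assembly as mm10) matched 72 of the 87 members. In the 250 bases before the start, 61.1% of the matched members held at least 10 CG pairs, compared to 30.8% of all promoters on chromosome X and 37.8% of all promoters. These wider sets are not limited to genes with enough reads in these cells to be listed. The other 153 genes were not compared in this way, so the difference is not read as a trait of the segment. The letters searched were CG, which reads the same on both strands. The share was 54.2% in the sparse and 64.6% in the gene-dense stretch. The median change was -0.141 for the 44 members with at least 10 CG pairs and -0.160 for the 28 members with fewer. Within a stretch these medians lay closer, at -0.187 and -0.195 in the sparse and -0.119 and -0.124 in the gene-dense stretch. The 250 bases before the start are shown for a pair of genes with strong decreases, Gpc4 and Tbl1x, and a pair with small changes, Dkc1 and Rpl10, picked after their values were seen. Sequences run 5′ to 3′ on the strand of the gene, and capitals mark CG pairs.
Gpc4 (chrX:52164924-52165173, minus strand): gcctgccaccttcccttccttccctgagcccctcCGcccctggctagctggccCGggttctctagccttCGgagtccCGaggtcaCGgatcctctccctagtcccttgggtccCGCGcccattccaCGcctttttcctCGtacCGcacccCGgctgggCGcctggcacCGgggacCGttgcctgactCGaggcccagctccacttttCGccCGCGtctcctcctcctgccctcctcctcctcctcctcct
Tbl1x (chrX:77510977-77511226, plus strand): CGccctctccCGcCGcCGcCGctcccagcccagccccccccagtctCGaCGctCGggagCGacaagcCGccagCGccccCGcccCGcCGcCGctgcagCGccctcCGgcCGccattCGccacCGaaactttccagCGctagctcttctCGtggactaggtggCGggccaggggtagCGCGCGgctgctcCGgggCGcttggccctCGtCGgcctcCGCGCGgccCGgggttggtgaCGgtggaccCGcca
Dkc1 (chrX:75095604-75095853, plus strand): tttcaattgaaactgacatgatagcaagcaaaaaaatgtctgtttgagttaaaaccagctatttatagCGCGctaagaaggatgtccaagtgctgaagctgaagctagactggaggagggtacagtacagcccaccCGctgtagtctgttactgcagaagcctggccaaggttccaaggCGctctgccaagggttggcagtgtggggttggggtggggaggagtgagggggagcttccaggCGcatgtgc
Rpl10 (chrX:74270566-74270815, plus strand): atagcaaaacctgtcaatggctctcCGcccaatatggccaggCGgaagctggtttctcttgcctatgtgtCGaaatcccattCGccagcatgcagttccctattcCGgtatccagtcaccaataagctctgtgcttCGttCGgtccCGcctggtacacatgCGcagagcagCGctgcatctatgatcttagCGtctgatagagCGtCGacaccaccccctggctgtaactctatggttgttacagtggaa

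Gpc4 held 18 CG pairs and Tbl1x 36, compared to 5 for Dkc1 and 13 for Rpl10. Rpl10 and Gpc4 thus lay on the same side of the limit of 10 with mean changes of -0.0275 and -0.245.

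Some members start less than 1000 bases apart on opposite strands and are transcribed away from each other. Idh3g and Ssr4, a translocon-associated gene, start 131 bases apart and had mean changes of -0.0754 and -0.0802. Mtcp1 and Brcc3, a deubiquitinase gene, start 85 bases apart and both fell, by 0.114 and 0.108. Within clones the members of these pairs differed on average by 0.0456 and 0.0407. Wider differences were found in the other 4 pairs, with averages of 0.138 to 0.238, the highest being Gm10474 and Fmr1.

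The genes on either side of the limits were compared by their values. Each comparison is between single genes in the same clones, so no edge of silencing is read from these steps. Enox2, the last gene before 50 Mb, had a mean change of -0.125 ± 0.0543 (SD, n = 6) and Firre behind it -0.266 ± 0.0764, a step larger than either SD. Firre is among the most lowered genes of its stretch, and each SD is that of a single gene, not of the difference. At 70 Mb, the last member before the limit, Fmr1nb (-0.212 ± 0.0762), and the first behind it, Ids (-0.0916 ± 0.0647), again differed by more than either SD. Aff2, left out by the rule, lies between them with a mean change of -0.208. Behind Ids, BC023829 (-0.181) and Mamld1 (-0.288) were lower again, so this step rests on Ids alone. At the end, Mageb16 (-0.139 ± 0.0573) and Tmem47 beyond 80 Mb (-0.146 ± 0.0765) did not differ beyond their spread.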

How the data were processed

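The deposited table holds fractions: for each gene and library the authors computed the allelic ratio Xi/(Xi + Xa). By the study's methods and the submitters' processing notes, ribosomal reads were removed with Bowtie2, the rest were aligned with STAR to mm10 with strain positions masked, split by allele with SNPsplit and counted per gene by strand with featureCounts. A gene needed at least 10 reads over strain positions across the samples; whether this holds for each library or for their sum is not stated. No counts are given here, so the depth behind each ratio is unknown and no interval for it is printed. Mapping bias left after masking was not measured. Another 10 columns matched no sample title (6 headed WT, 4 repeats of 11C) and were not used.

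The change (Dox24h minus NoDox of the same clone) was fitted with limma 3.58.1 in R 4.3.3 over 242 genes, with the mean change, exon 7 and exon 1 as terms, tested on simulated data first. The Benjamini-Hochberg adjustment ran over all these genes, at 0.05. The pairing comes from the clone names in the titles. Deviations from the treatment means correlated within a clone at 0.138 to 0.516, and at -0.0549 in 6F. In 11C (0.138) and 6F a higher correlation was found with another clone (0.222 and 0.207). For these clones the pairing thus rests on the names alone. Where nothing names separate cultures, p-values measure the spread between these clones only.

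The members, the lists and the rule for named genes were chosen with earlier results of these data known. Named were the 5 most and 5 least lowered genes of each stretch, the 5 smallest p of each deletion term, the genes at the edges, up to 4 genes per list, genes higher in at least 4 clones and, by count, genes at exactly 0 or 1. Others named (Gpc3, Hprt, Fmr1, Flna, Taz, Irak1, Ssr4, Mtcp1, Brcc3, Prkx and Mir669m-2) were chosen after their values were seen. Table starts were 1 below the GENCODE M21 start for 43 of 85 members found there and equal for 5, so they are printed with 1 added. Summaries over members are medians per clone, with the SD over clones. Single values of some members are not reported here. Figures were drawn with matplotlib 3.10.9 in Python 3.11.15.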

Additional observations from a re-analysis of the deposited data

Results flagged for a closer look

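Each measure over the 6 clones was checked for a clone far from the others, which chance alone flags in about 1 of 20 measures. That would be 2.55 of the 51 checked here, and 9 were flagged. The measures are not separate, since the segment contains both stretches and all share the same clones. The flagged genes were also named by rules that used their values. No excess over chance is therefore read from the count of 9. Clone 4E was set apart in NoDox, with median ratios of 0.781 over the segment, 0.767 in the sparse and 0.798 in the gene-dense stretch, where the next highest clones had 0.526, 0.515 and 0.534. In 6F the changes of the 31 sparse genes were spread widely (SD over genes 0.229, next 0.112).

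Single genes were set apart as well. In 6F, Gm10474 changed by 0.810 (next -0.0255), Slc6a8 by -0.730 (next -0.262) and Vma21 by -0.264 (next -0.0690). In 4E, Frmd7 changed by 0.101 (next 0.0333) and Haus7 by 0.170 (next -0.0363). Of the 87 members, 11 were at exactly 0 or 1 in at least 1 library, Frmd7 in 8, 1700013H16Rik in 4, L1cam in 2 and 8 genes in 1 each. The cause of these values was not tested.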

How the results depend on the processing

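Without the pairing of libraries by clone (no replicate block), 7 members were called lowered in place of 61, with 45 at an unadjusted p under 0.05. All 7 were among the 61. The cause was not tested, but this fit leaves the level of 4E in the spread. With a common NoDox baseline (no replicate block), the exon 7 difference in the segment was 0.176 in place of 0.0809 and the exon 1 difference -0.137 in place of -0.0342. On this baseline 4E, which starts high, had a segment median of 0.100, while 3B and 7E had -0.141 and -0.136. On the log2 odds scale, with 0.02 added to the share of each allele, the segment median was -0.93, the exon 7 difference 0.49, the exon 1 difference -0.16 and the gene-dense minus sparse difference 0.30. As percent of the NoDox ratio these were -28.3%, 19.6%, -10.4% and 11.6%. Leaving out each clone in turn gave -0.163 to -0.137 for the segment median, 0.0631 to 0.0935 for the exon 7 difference, -0.0702 (without 7E) to -0.00475 (without 6F) for the exon 1 difference, 0.0357 to 0.0516 between the stretches, and 53 to 62 genes called lowered. No exon 7 or exon 1 call appeared in any of these fits (0 members, limma), and the members at an unadjusted p under 0.05 for exon 7 numbered 4 (without 2B) to 18 (without 6F), and 0 with no replicate block. The other alternatives (log2 odds, robust variance, filters on the NoDox ratio and on ratios of exactly 0 or 1) gave 55 to 61 lowered genes. Gm10474 ranged from -0.139 (without 6F) to 0.169 (without 11C). Of the other values of named genes under these fits, 474 kept their direction and call, 24 lost the call and 8 gained it. Ids (-0.0916) lost it without 2B, 3B or 7E (-0.0865, -0.0819 and -0.0865), and Htatsf1 gained it without 6F (-0.143). The mean changes without 2B and without 7E are the same estimate, from 3B, 4E, 6F and 11C. The filter on gene span, on 6F and on paralogous, antisense and pseudogene members, and the distance between stretches by exon 7 state, were added after the data were seen. The arms of that distance did not overlap in 12 of 14 settings. These settings share the same clones and most genes, and placing genes by midpoint changed no value, so they are not separate tests. Unknown depth limits all values of short genes.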
